A study of Mus musculus with 16 samples.

Results

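The genes examined here encode the enzymes of glycolysis and gluconeogenesis, with the glucose transporter, the lactate transporter and the regulatory kinases that act beside them. They were taken by symbol from a table of read counts, which held all 35 of them among 28971 genes. Of these, 29 act in glycolysis or its control and 6 in gluconeogenesis (Pck1, Pck2, Pcx, Fbp1, Fbp2 and G6pc), and the groups are described apart. RNA came from whole mouse kidneys. The mutants, called Hes1 cKO (conditional knockout), had Pax8-rtTA with TRE-Cre and were f/f (floxed on both alleles) for Hes1, so that doxycycline turns on Cre in cells that express Pax8, which in the kidney are epithelial cells of the tubules and collecting duct. Control littermates are labelled wild type. All animals, controls included, drank doxycycline at 1 mg/mL with 5% sucrose for 1 week from 3 weeks of age, so the sugar in the water and the drug are shared by both groups. By title there are 7 kidneys of Hes1 cKO (3 male, 4 female) and 9 of controls (6 male, 3 female), whereas the series text gives the sizes of the groups the other way round. In the table used, the names of 3 columns mark mutant and those of 4 wild type. The column names do not say which titled kidney each is. The libraries are called Hes1 cKO 1 to 3 (or mutants 1 to 3) and control 1 to 4 below, and these numbers only name columns.

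Glycolysis splits glucose into pyruvate through a chain of enzymes, many of which exist as isoforms encoded by separate genes with different tissue preferences. Gluconeogenesis runs the other way and replaces the irreversible steps with enzymes of its own: pyruvate carboxylase, phosphoenolpyruvate carboxykinase, fructose bisphosphatase and glucose-6-phosphatase. In the kidney, proximal tubule cells make glucose and use little of it, while the distal nephron and collecting duct depend more on glycolysis. The series asked which genes depend on Hes1, a repressor that acts downstream of Notch receptors, with the cell types of the collecting duct in view.

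Libraries held 16973931 to 20420422 counts. Hes1 was read at 17.2 to 19.8 CPM (counts scaled to the effective library size) in the mutants and at 42.8 to 67.6 CPM in the controls. Its log2 fold change, Hes1 cKO minus control, was -1.61 (SE 0.16; adjusted p = 0.00357 in the quasi-likelihood test of edgeR, with p-values adjusted by Benjamini-Hochberg over 15615 tested genes). The groups did not overlap. Of the genes tested, 53 were called at an adjusted p under 0.05, which is 0.339% of them; 50 (0.32%) were higher in Hes1 cKO and 3 lower. Xist, transcribed from the inactive X chromosome in females, was abundant (333 to 367 CPM) in Hes1 cKO 3, control 3 and control 4, while the other libraries had 0.371 CPM or less, so each group holds both kinds of library. Genes of steroid synthesis that mark the adrenal cortex summed to 1093 CPM in Hes1 cKO 3 and 814 CPM in control 1, against 3.56 to 212 CPM in the other libraries. Nothing in the labels says whether the libraries are from separate animals, so p-values measure the spread between these libraries.

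Of the 35 genes, 34 were tested and 1 was called, against 0.339% of all tested genes. Hkdc1, a hexokinase-like enzyme, rose 2.93-fold in Hes1 cKO. No other gene of either group passed the test by edgeR, DESeq2 or limma-voom. At an unadjusted p under 0.05, edgeR gave 2 of the 34 higher (Hkdc1 and Slc16a3) and 3 lower (Pgam2, Aldoc and Fbp1), or 5 in all, against 3.34% of all tested genes higher and 2.61% lower. Every mutant library was above every control for 2 genes (Hkdc1 and Slc16a3), against 3.71% of all tested genes, and below for 2 (Pgam2 and Fbp1), against 3.29%. Among 34 genes, counts this small are not read as particular to the pathway. The log2 fold changes of the 28 tested glycolytic genes had a median of -0.02, with 11 above 0 and 17 below. Those of the 6 gluconeogenic genes had a median of -0.04, with 3 above 0 and 3 below. Over all tested genes the median was -0.0064 and 48.4% were above 0. Hk3, a hexokinase of blood cells, was not tested, since it had only 3 to 10 counts per library (0.176 to 0.516 CPM).

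**Figure D1:**
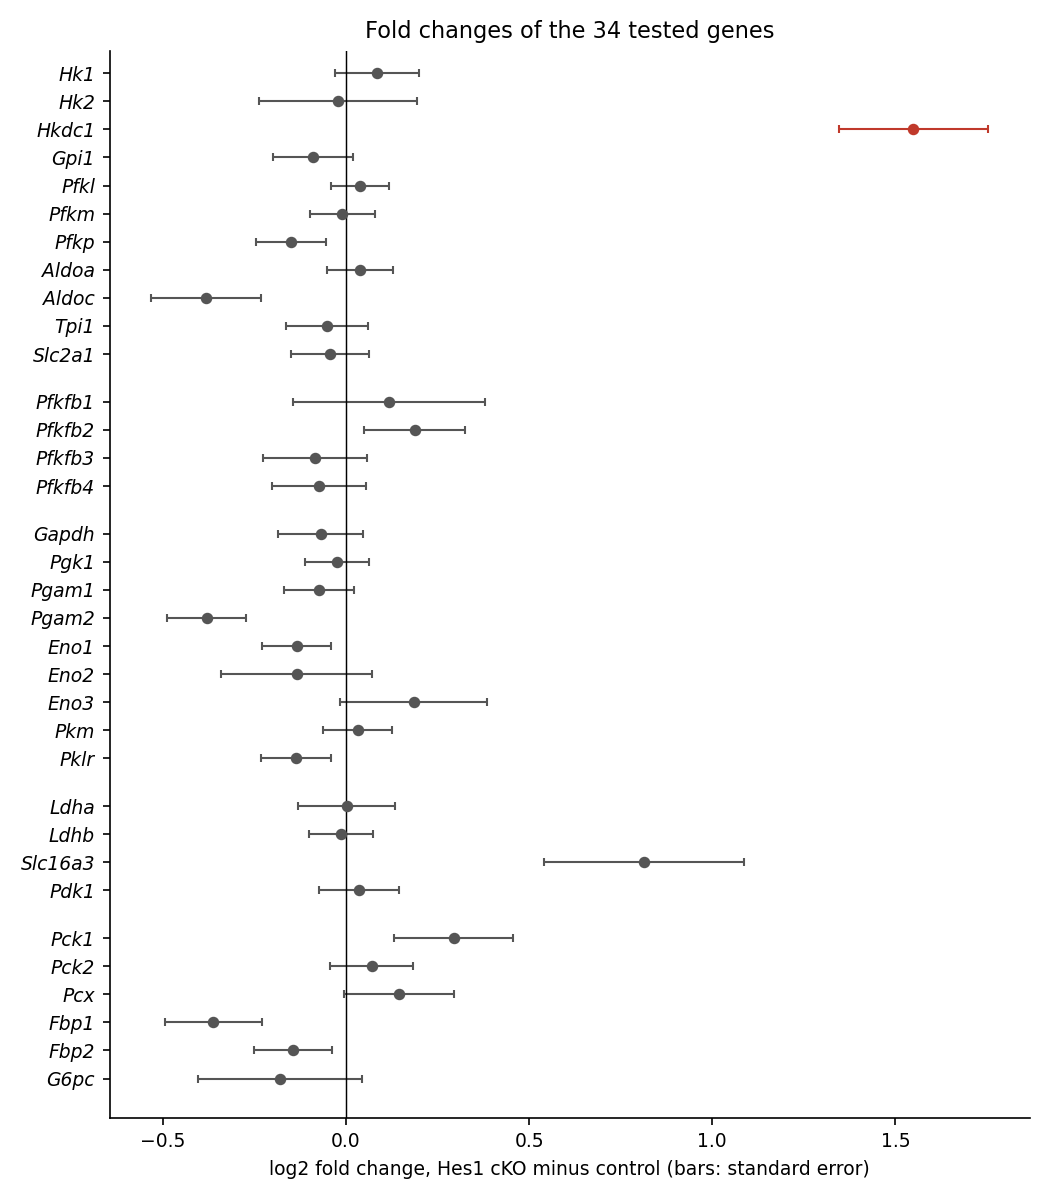
Log2 fold change (x axis, Hes1 cKO minus control) of each of the 34 tested genes (y axis), ordered by role from glucose entry to gluconeogenesis. Points are edgeR estimates from 3 mutant and 4 control libraries, bars are standard errors, and red marks the called gene. Hkdc1 at 1.55 stands to the right of all others, of which only Slc16a3 (0.81) lies beyond 0.5 in either direction.

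Levels of different genes were compared as CPM per kilobase of merged exons of all annotated transcripts. This length can exceed that of the transcript expressed, so ranks and shares between genes depend on the annotation. On this scale the control kidneys ranked Pck1 first at 2063, followed by Ldhb at 738, Fbp1 at 701, Gapdh at 496 and Aldoa at 393. Pck1 lay above the other 34 genes in every control library (1696 to 2407). Ldhb (693 to 804) and Fbp1 (591 to 827) overlapped, as did Tpi1 (274 to 352), Pcx (220.5 to 336) and Pgk1 (240.4 to 277). At the low end, Hk3 had 0.123, Pfkfb1 0.391, Slc16a3 0.438, Eno2 0.605 and Hkdc1 0.984 CPM per kilobase in controls. Pfkfb1 (0.313 to 0.514) and Slc16a3 (0.330 to 0.554) overlapped, whereas Hkdc1 (0.794 to 1.23) stayed above Eno2 (0.563 to 0.646).

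**Figure D2:**
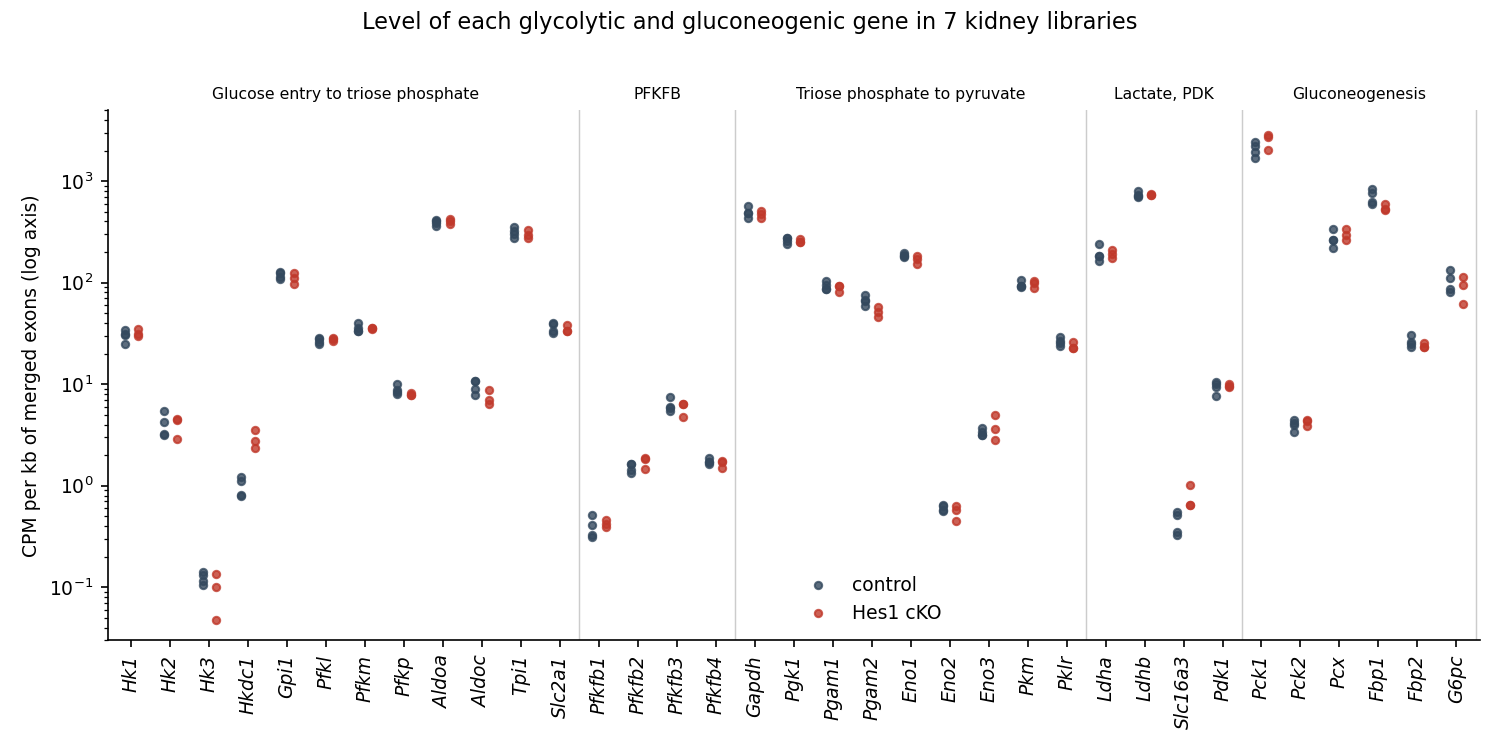
Level of all 35 genes in every library (y axis, CPM per kilobase of merged exons, log axis), grouped by role along the x axis; each point is 1 library, 4 control in dark blue and 3 Hes1 cKO in red. Pck1 is highest (2063 on average in controls), Hk3 lowest (0.123), and the groups stand visibly apart for Hkdc1.

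The first step, which traps glucose as glucose-6-phosphate, is shared by the hexokinases. Hkdc1 (hexokinase domain containing 1; ENSMUSG00000020080) lies on GRCm38 chr10:62383137-62422491, on the minus strand, and none of its exons overlaps another gene. Hk1, the hexokinase of most tissues, is its neighbour at chr10:62268855-62379908 on the same strand, directly downstream. Its antisense neighbour Hk1os overlaps it but had 47 counts in all libraries together, against 33969 for Hk1. Hk2, the insulin-responsive form of muscle and fat, lies at chr6:82725025-82774454, also on the minus strand. The stretches before their starts are given because Hkdc1 was called while Hk1 and Hk2 were not, and HES1 binds DNA. HES proteins are known to bind the N box (CACNAG) and the class C site (CACGNG), and FOXI1, an intercalated cell factor, a forkhead core (TGTTTAC). Each was searched on both strands in the 250 bases before each RefSeq start; CACGAG is both an N box and a class C site. Capitals mark N box matches, where a match on the opposite strand reads CTNGTG, and the stretches printed exclude annotated exons (RefSeq, GRCm38.p6, 5′ to 3′ on the gene's strand).
Hkdc1, chr10:62422492-62422707: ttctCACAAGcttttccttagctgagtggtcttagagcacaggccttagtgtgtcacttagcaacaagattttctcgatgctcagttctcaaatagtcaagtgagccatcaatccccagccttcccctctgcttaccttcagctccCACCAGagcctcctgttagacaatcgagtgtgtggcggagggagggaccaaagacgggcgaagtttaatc
Hk1 outer start, chr10:62379909-62380158: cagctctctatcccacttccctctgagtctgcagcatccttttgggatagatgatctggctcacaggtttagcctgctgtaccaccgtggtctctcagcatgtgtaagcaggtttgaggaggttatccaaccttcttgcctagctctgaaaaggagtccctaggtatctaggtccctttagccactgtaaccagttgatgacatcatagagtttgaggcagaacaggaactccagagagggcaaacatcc
Hk1 inner start, chr10:62340543-62340671: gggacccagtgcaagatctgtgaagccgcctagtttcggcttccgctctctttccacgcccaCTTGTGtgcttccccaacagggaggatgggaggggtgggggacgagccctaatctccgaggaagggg
Hk2, chr6:82774455-82774704: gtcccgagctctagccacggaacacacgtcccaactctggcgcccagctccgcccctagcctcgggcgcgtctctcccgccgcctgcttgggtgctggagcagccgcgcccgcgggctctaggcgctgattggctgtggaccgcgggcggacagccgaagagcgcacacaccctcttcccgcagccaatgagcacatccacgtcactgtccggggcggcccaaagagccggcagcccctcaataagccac

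The Hkdc1 window held 2 N boxes, CACAAG at 246 and CACCAG at 104 bases before the start, and no class C site or forkhead core. The windows of Hk2 and of the outer Hk1 start held none of these motifs. That of the inner Hk1 start held 1 N box, 188 bases before the start, and 2 overlapping class C sites, 15 and 13 bases before the start in a stretch that the annotation counts as exon and that is not printed. Among 32851 RefSeq promoters, 36.7% held an N box, 23.5% a class C site and 3.17% the forkhead core in a window of this length. The matches describe letters only, and binding was not measured.

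Hkdc1 was read at 18.2, 12.1 and 14.1 CPM in mutants 1 to 3 and at 4.07, 4.13, 6.31 and 5.68 CPM in control 1 to 4, from 71 to 344 counts per library. Every mutant library lay above every control. The mean was 14.8 ± 3.11 CPM (SD, n = 3) in the mutants against 5.05 ± 1.12 CPM (SD, n = 4) in the controls. The log2 fold change was 1.55 (SE 0.20; adjusted p = 0.0136 by edgeR), the 30th smallest p of all tested genes. An exact two-sided permutation test gave p = 0.0286, the smallest it can give with 3 against 4 libraries. DESeq2, which called 130 of 15305 genes (0.849%), and limma-voom, which called 51 of 15615 (0.327%), also called Hkdc1 and no other member. Among libraries with little Xist the log2 ratio of the means was 1.89, and among those with high Xist, with 1 mutant library and therefore no test, it was 1.23. Without Hes1 cKO 1 the log2 fold change was 1.37 and the adjusted p 0.0755 by edgeR, so the call was lost. That fit rests on fewer libraries and called 27 genes in all, against 53 in the main fit. What the loss owes to that library itself was not tested. Without Hes1 cKO 3 and control 1, the libraries richest in adrenal transcripts, the log2 fold change was 1.50 and the adjusted p 0.0761 by edgeR. This fit, too, rests on fewer libraries. Over 16 alternatives the adjusted p ran from 1.5e-09 (DESeq2) to 0.0761, and the log2 fold change from 1.37 to 1.67.

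For the other hexokinases no difference passed the test. Hk1 was at 299, 263 and 254 CPM in mutants 1 to 3 and at 259, 214, 291 and 263 CPM in control 1 to 4. Hk2 was at 26.9, 26.5 and 17.4 CPM against 25.1, 32.2, 19.5 and 18.9 CPM. For both genes the libraries of the groups overlapped, with log2 fold changes of 0.08 (SE 0.11) for Hk1 and -0.02 (SE 0.22) for Hk2. The ratios within each library describe this contrast and are not tested, since Hkdc1 was picked as the called gene. Log2 of Hkdc1 over Hk1 was -4.22 ± 0.20 (SD, n = 3) in the mutants against -5.69 ± 0.22 (SD, n = 4) in the controls, a difference of 1.47. Log2 of Hkdc1 over Hk2 was -0.67 ± 0.42 (SD, n = 3) against -2.24 ± 0.66 (SD, n = 4), a difference of 1.57. As a share of hexokinase transcripts per kilobase, Hkdc1 made up 8.21%, 6.25% and 7.73% in the mutants and 2.23%, 2.57%, 3.18% and 3.14% in the controls. Hk1 remained the main form, at 82.2% ± 1.49 (SD, n = 3) against 85.2% ± 3.77 (SD, n = 4), and Hk2 took 10.1% ± 1.79 (SD, n = 3) against 11.6% ± 4.02 (SD, n = 4).

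**Figure D3:**
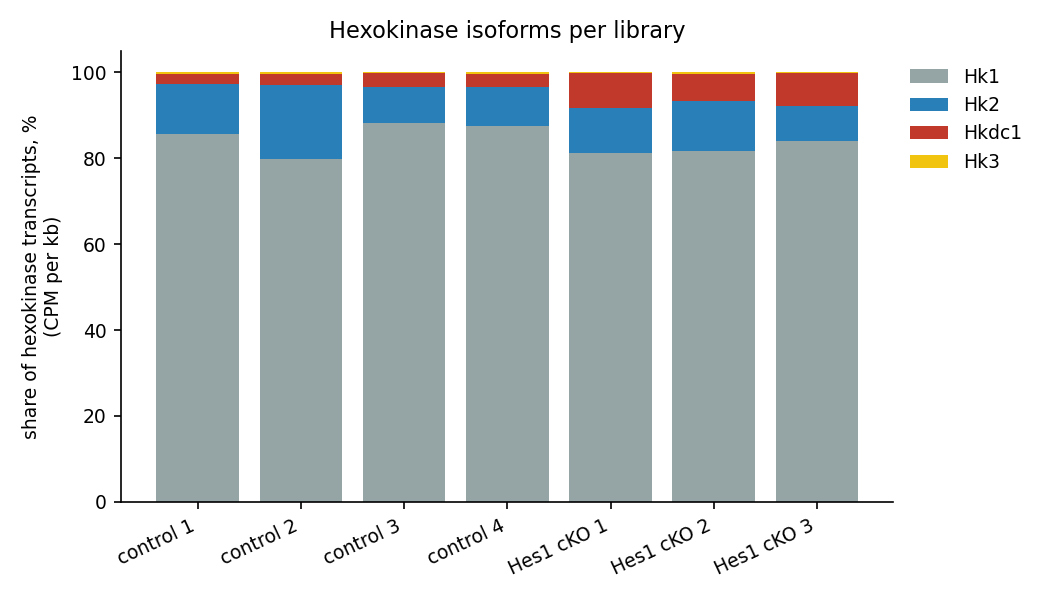
Share of each hexokinase gene in the summed CPM per kilobase of Hk1, Hk2, Hk3 and Hkdc1 (y axis, percent), with 1 bar per library. The Hkdc1 segment is 2.23% to 3.18% in the 4 controls and 6.25% to 8.21% in the 3 Hes1 cKO libraries, while Hk1 fills most of every bar.

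Markers of intercalated cells, the acid and base transporting cells of the collecting duct, also differed between the groups, as Hkdc1 did. All 7 markers tested (Foxi1, Atp6v1g3, Atp6v0d2, Slc4a1, Slc26a4, Slc4a9 and Atp6v1b1) were higher in Hes1 cKO and 6 of them were called by each of edgeR, DESeq2 and limma-voom, with a median log2 fold change of 1.25. Summed, they reached 1240.3, 1235 and 1133 CPM in mutants 1 to 3, and 422, 541, 566 and 544 CPM in control 1 to 4, with no overlap. Markers of principal cells, the water and sodium transporting cells, had 6 tested genes, all lower, with a median of -0.60. Of these, 1 was called by edgeR and by limma-voom (Hsd11b2 in edgeR) and 4 by DESeq2, and 5 had an unadjusted p under 0.05 in each tool. Their sum was 707 to 1122 CPM in the mutants and from 1164 to 1787 CPM in the controls. In whole-kidney RNA, more cells of a type and more RNA per cell cannot be told apart, and the part of cell composition in the Hkdc1 difference was not tested. Summed adrenal transcripts were at 53.7, 3.56 and 1093 CPM in mutants 1 to 3 and at 814, 212, 6.20 and 6.39 CPM in control 1 to 4. Among the controls, the 2 libraries with more of them had the lower Hkdc1 (4.07 and 4.13 CPM, against 6.31 and 5.68 CPM). These were also the low Xist controls, so adrenal content and Xist cannot be told apart among the controls. With the adrenal transcripts as a covariate the log2 fold change of Hkdc1 was 1.59 (adjusted p = 0.0178 by edgeR). Without the libraries richest in adrenal transcripts its log2 fold change was 1.50 and its call was lost, as given above. Whether adrenal content or the smaller number of libraries lost the call was not tested.

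**Figure D4:**
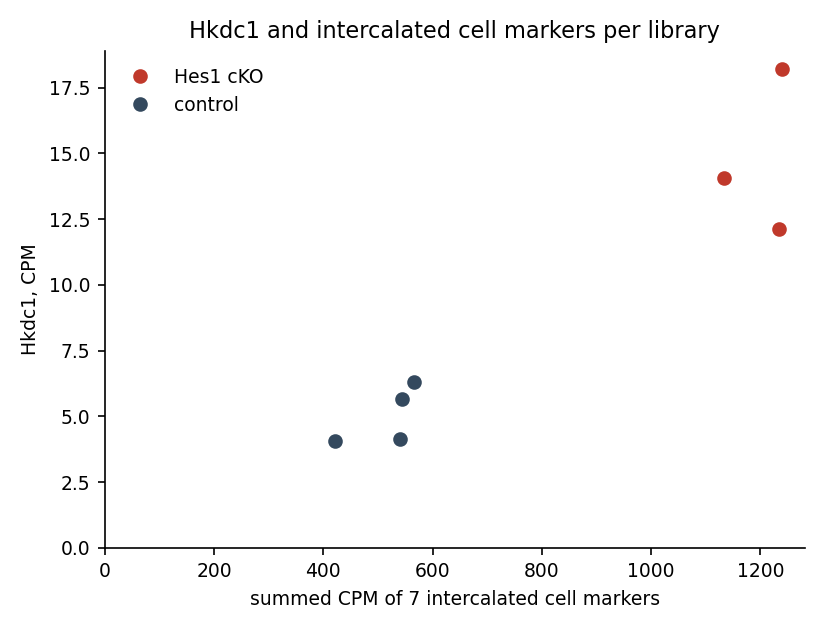
Hkdc1 (y axis, CPM) against the summed CPM of 7 intercalated cell markers (x axis), with 1 point per library and red for Hes1 cKO. The 3 mutant libraries sit together at 1133 to 1240.3 CPM of markers and the 4 controls at 422 to 566 CPM.

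From glucose-6-phosphate to triose phosphate, no gene passed the test, and edgeR's adjusted p-values ran from 0.744 to 0.996. Slc2a1 encodes the basolateral glucose transporter GLUT1 of glycolytic cells. It was at 135, 117 and 117 CPM in mutants 1 to 3 and at 118, 112, 141 and 137 CPM in control 1 to 4, with overlapping groups and a log2 fold change of -0.04 (SE 0.11). Gpi1, which isomerises glucose-6-phosphate, was at 811, 709 and 631 CPM against 827, 729, 794 and 702 CPM. Its log2 fold change was -0.09 (SE 0.11), and Hes1 cKO 3 was the lowest library.

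Phosphofructokinase commits the sugar to glycolysis. Pfkl, the liver form, had the most counts, at 178, 190.3 and 185 CPM in the mutants against 184, 168, 191 and 175 CPM in the controls (log2 fold change 0.04, SE 0.08). Pfkm, the muscle form, had the larger share per kilobase, 49.8% ± 0.869 (SD, n = 3) against 49.9% ± 1.43 (SD, n = 4), but Senp1 overlaps its exons, and whether counting used strand is not given. Pfkp, the platelet form, was at 109.9, 104 and 106 CPM in the mutants against 113, 117, 136 and 108 CPM in the controls. Its log2 fold change was -0.15 (SE 0.09; unadjusted p = 0.145, adjusted p = 0.938 by edgeR), and Hes1 cKO 1 lay above control 4. Reads of Pitrm1, which overlaps Pfkp, cannot be told apart from it without strand.

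Aldolase splits fructose bisphosphate. Aldoa, the form of muscle and most tissues, was at 1232, 1178 and 1109.8 CPM in the mutants against 1125, 1177, 1212 and 1059 CPM in the controls, a log2 fold change of 0.04 (SE 0.09). Aldoc, the brain form, was at 22.6, 20.8 and 28.3 CPM in mutants 1 to 3 and at 29.4, 25.5, 34.96 and 34.8 CPM in control 1 to 4. Hes1 cKO 1 and 2 lay below every control and Hes1 cKO 3 above control 2. The means were 23.9 ± 3.93 CPM (SD, n = 3) and 31.2 ± 4.58 CPM (SD, n = 4), giving a log2 fold change of -0.38 (SE 0.15; unadjusted p = 0.0297, adjusted p = 0.744 by edgeR; exact two-sided permutation p = 0.114). In controls Aldoc was also higher with high Xist than with low Xist, by 0.35 on the log2 scale. The low Xist controls were also those with more adrenal transcripts, so Xist and adrenal content cannot be told apart among the controls. Within the low and high Xist libraries the mutant was at -0.34 and -0.30 relative to control. Tpi1, which interconverts the triose phosphates, was at 914, 814 and 756 CPM against 969, 880.3, 827 and 756 CPM, with overlap and a log2 fold change of -0.05 (SE 0.11). Spsb2 overlaps Tpi1.

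The PFKFB enzymes make and degrade fructose-2,6-bisphosphate, which speeds phosphofructokinase and slows fructose bisphosphatase. None of the 4 genes had an unadjusted p under 0.05 in edgeR, DESeq2 or limma-voom. Pfkfb3, the form with the strongest kinase activity, supplied 60.2% ± 3.91 (SD, n = 3) of PFKFB transcripts per kilobase in the mutants and 62.6% ± 4.83 (SD, n = 4) in control. It was at 48.1, 47.8 and 35.9 CPM in mutants 1 to 3 and at 56.8, 43.6, 45.1 and 40.8 CPM in control 1 to 4, with overlap and a log2 fold change of -0.08 (SE 0.14). The others were Pfkfb1 at 0.12 (SE 0.26), Pfkfb2 at 0.19 (SE 0.14) and Pfkfb4 at -0.07 (SE 0.13). Yod1 overlaps Pfkfb2 and Apex2 overlaps Pfkfb1, with 1791 counts for Apex2 against 211 for Pfkfb1, so the latter is uncertain.

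From triose phosphate to pyruvate, 7 of the 9 genes had log2 fold changes below 0 and none was called. Of these 7, Gapdh and Pgk1 crossed 0 when single libraries were left out. Pgam2, the muscle form of phosphoglycerate mutase (chr11:5801640-5803733 in GRCm38), was at 43.2, 38.2 and 47.9 CPM in mutants 1 to 3 and at 49.8, 55.5, 62.9 and 56.1 CPM in control 1 to 4. Every mutant library lay below every control, although Hes1 cKO 3 and control 1 were close. The means were 43.1 ± 4.88 CPM (SD, n = 3) and 56.1 ± 5.37 CPM (SD, n = 4). The log2 fold change was -0.38 (SE 0.11; unadjusted p = 0.00600, adjusted p = 0.512 by edgeR), with an exact two-sided permutation p of 0.0571. Pgam1, the form of most tissues, was at 182, 159 and 183 CPM against 204, 171, 189 and 171 CPM, with overlap and a log2 fold change of -0.07 (SE 0.10). Pgam2 made up 36.8% ± 1.22 (SD, n = 3) of mutase transcripts per kilobase in the mutants and 41.9% ± 3.53 (SD, n = 4) in control. Skeletal muscle markers summed to 2.06 to 3.65 CPM in the mutants and from 1.64 to 2.63 CPM in the controls. The part of muscle in Pgam2 was not tested.

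Gapdh, which oxidises glyceraldehyde-3-phosphate, was at 2084, 1976 and 1798 CPM in the mutants against 2374, 2023, 1994 and 1805 CPM in the controls (log2 fold change -0.07, SE 0.11). Pgk1, which makes the first ATP of the pathway, was at 561, 564 and 609.6 CPM against 621, 572, 621 and 539 CPM (log2 fold change -0.03, SE 0.09). Eno1, the enolase of most tissues, was at 991, 927 and 817 CPM against 1053, 972, 981 and 996 CPM (log2 fold change -0.13, SE 0.09). The groups overlapped for all of these, of which Gapdh and Pgk1 often serve as reference genes. Eno1 supplied 97.4% ± 0.873 (SD, n = 3) and 97.9% ± 0.162 (SD, n = 4) of enolase transcripts per kilobase, and the log2 fold changes of the neuronal Eno2 and the muscle form Eno3 were -0.13 (SE 0.21) and 0.19 (SE 0.20). Reads of Gapdh, Pgk1 and Eno1 can be shared with near-identical pseudogenes, and Iffo1 overlaps Gapdh.

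Pyruvate kinase makes pyruvate and the last ATP. Pkm, the form of muscle and growing cells, was at 523, 446 and 500.2 CPM in mutants 1 to 3 and at 464, 467, 531 and 454 CPM in control 1 to 4. The groups overlapped, with a log2 fold change of 0.03 (SE 0.09). Pklr, the form of liver and red blood cells, had a log2 fold change of -0.14 (SE 0.10) and was highest, at 93.8 CPM, in control 2. That library also had the highest sum of red blood cell markers, 1570 CPM against 317 to 726 CPM in the others. The next highest Pklr, 86.2 CPM, was in control 4, which had the lowest sum, 317 CPM. The part of blood in Pklr was not tested. Pkm took 80.4% ± 2.72 (SD, n = 3) of pyruvate kinase transcripts per kilobase in the mutants and 78.5% ± 2.31 (SD, n = 4) in control. The counts are per gene and do not separate the splice forms of Pkm.

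Pyruvate is turned into lactate or passed to mitochondria. Ldhb, the lactate dehydrogenase subunit of oxidative tissue, was at 1160.4, 1138 and 1142 CPM in the mutants against 1128, 1156, 1262 and 1087 CPM in the controls. Ldha, the subunit of glycolytic tissue, was at 691, 579.6 and 637 CPM in mutants 1 to 3 and at 790.2, 604, 600.1 and 546 CPM in control 1 to 4. Both overlapped, with log2 fold changes of -0.01 (SE 0.09) for Ldhb and 0.0018 (SE 0.13) for Ldha. Ldhb formed 79.2% ± 1.29 (SD, n = 3) and 79.4% ± 2.95 (SD, n = 4) of their transcripts per kilobase. Pdk1, a kinase that shuts pyruvate dehydrogenase, was at 74.4, 78.1 and 72.5 CPM against 59.6, 81.7, 73.3 and 78.3 CPM, with a log2 fold change of 0.03 (SE 0.11).

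Slc16a3 encodes MCT4, the lactate exporter of strongly glycolytic cells (chr11:120948480-120960868 in GRCm38). It was at 5.40, 3.41 and 3.47 CPM in mutants 1 to 3 and at 2.75, 1.85, 1.76 and 2.95 CPM in control 1 to 4, from 32 to 102 counts. All mutant libraries were above all controls, and Hes1 cKO 1 was well above the other mutants. The means were 4.09 ± 1.13 CPM (SD, n = 3) and 2.33 ± 0.610 CPM (SD, n = 4), giving a log2 fold change of 0.81 (SE 0.27). That difference did not pass over all genes (unadjusted p = 0.0147, adjusted p = 0.691 by edgeR), and the exact two-sided permutation p was 0.0571. Stromal markers were also highest in Hes1 cKO 1, at 609 CPM, but lowest in Hes1 cKO 2 and 3, at 298 and 268 CPM. The controls had 326 to 514 CPM of stromal markers, and the part of stroma in Slc16a3 was not tested. Hypoxia response genes, which include known companions of Slc16a3, summed to 913 to 1076 CPM in the mutants and from 986 to 1012 CPM in the controls. Most of each sum came from Ndrg1 (492 to 626 CPM). None of 6 tested was called or had an unadjusted p under 0.05 in edgeR, DESeq2 or limma-voom. Egln3, counted among the regulators below and not here, had a log2 fold change of 0.42 (SE 0.13; unadjusted p = 0.00833, adjusted p = 0.561 by edgeR). The part of hypoxia in Slc16a3 was not tested.

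**Figure D5:**
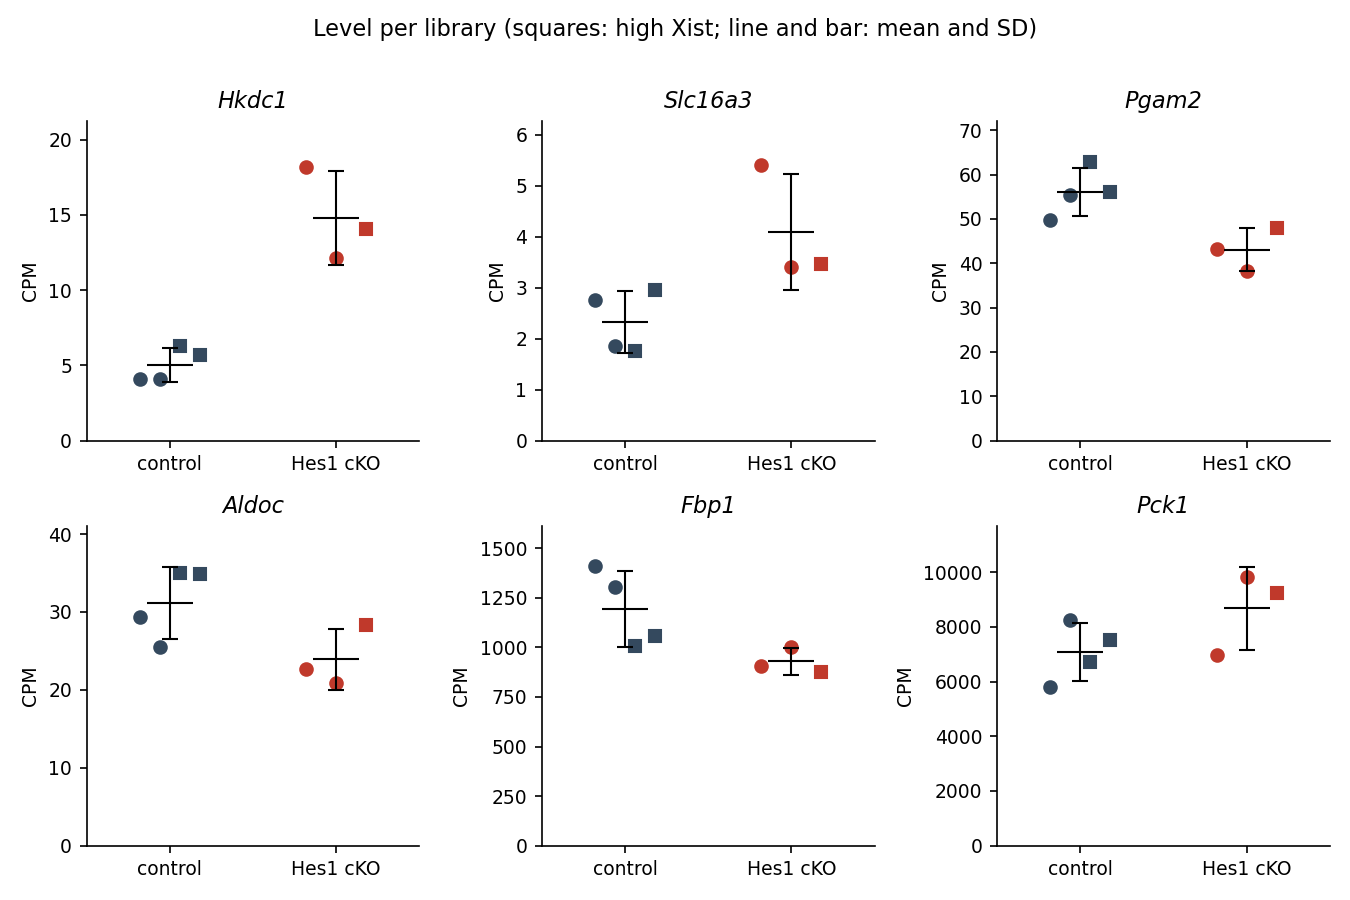
Level of 6 genes in each library (y axis, CPM, from 0; x axis, group): Hkdc1, Slc16a3, Pgam2, Aldoc, Fbp1 and Pck1. Each point is 1 library (squares have high Xist), the line is the mean and the bar the SD over 4 controls or 3 Hes1 cKO libraries. The groups do not overlap for Hkdc1, Slc16a3, Pgam2 and Fbp1 and overlap for Aldoc and Pck1.

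Among the gluconeogenic genes, 0 of 6 were called by edgeR, DESeq2 or limma-voom. An unadjusted p under 0.05 was reached by 1 gene in edgeR, 2 in DESeq2 and 1 in limma-voom, where 5.95%, 5.58% and 6.03% of all tested genes reached it. Pcx, mitochondrial pyruvate carboxylase, which opens the path from pyruvate, was at 1409, 1612 and 1238 CPM in the mutants against 1598, 1253, 1048 and 1236 CPM in the controls (log2 fold change 0.15, SE 0.15). Pck1, the cytosolic carboxykinase that yields phosphoenolpyruvate and is induced by acidosis and fasting, was at 6963, 9830.1 and 9226 CPM in mutants 1 to 3 and at 5814, 8255, 6704 and 7523 CPM in control 1 to 4. Hes1 cKO 2 and 3 exceeded every control, while Hes1 cKO 1 lay among them. The means were 8673 ± 1512 CPM (SD, n = 3) and 7074 ± 1052 CPM (SD, n = 4), giving a log2 fold change of 0.29 (SE 0.16; unadjusted p = 0.103, adjusted p = 0.927 by edgeR; exact two-sided permutation p = 0.171). Pck1 supplied 99.8% of carboxykinase transcripts per kilobase in both groups, and Pck2, the mitochondrial form, had a log2 fold change of 0.07 (SE 0.11).

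Fbp1, the liver and kidney fructose bisphosphatase (chr13:62864753-62888282 in GRCm38), was at 906, 1003 and 877 CPM in mutants 1 to 3 and at 1408, 1303, 1006 and 1056 CPM in control 1 to 4. Every mutant library was below every control, but Hes1 cKO 2 and control 3 nearly met. The means were 929 ± 66.3 CPM (SD, n = 3) and 1193 ± 193 CPM (SD, n = 4). The log2 fold change was -0.36 (SE 0.13), which did not pass over all genes (unadjusted p = 0.0226, adjusted p = 0.719 by edgeR), and the exact two-sided permutation p was 0.114. The controls themselves split by Xist, with the high Xist pair at -0.39 on the log2 scale relative to the low Xist pair. The low Xist pair also had more adrenal transcripts, so Xist and adrenal content cannot be told apart among the controls. Within the low Xist libraries the mutant was at -0.51 relative to control, and within the high Xist libraries, with 1 mutant, at -0.23. With Xist as a covariate the log2 fold change was -0.40 (adjusted p = 0.285 by edgeR, within a range of 0.285 to 0.9997 over 16 alternatives). Fbp2, the muscle form, had a log2 fold change of -0.15 (SE 0.11) and made up 4.19% ± 0.459 (SD, n = 3) of the transcripts per kilobase of this step in the mutants and 3.68% ± 0.759 (SD, n = 4) in control.

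G6pc, the glucose-6-phosphatase that releases free glucose, was at 149, 230.2 and 276 CPM in mutants 1 to 3 and at 209, 196, 319 and 267 CPM in control 1 to 4. The groups overlapped widely, and the log2 fold change was -0.18 (SE 0.22). Here too the controls differed by Xist, the high Xist pair being at 0.54 on the log2 scale relative to the low Xist pair. That is more than the distance between genotypes within either class (-0.09 in both). The same pairs differ in adrenal transcripts, which cannot be told apart from Xist among the controls. Of 12 proximal tubule markers, the cells in which renal gluconeogenesis resides, 10 were lower in Hes1 cKO and none was called, with a median log2 fold change of -0.16. None had an unadjusted p under 0.05 in edgeR or limma-voom and 1 did in DESeq2. Their summed level was 13274 to 14952 CPM in the mutants and from 13504 to 19280.5 CPM in the controls, highest in control 1, the library that also had the most Fbp1. The part of proximal tubule content in the gluconeogenic values was not tested.

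Further genes of sugar metabolism were taken as 7 lists: glucose and fructose entry, glycogen, pentose phosphate pathway, partners of gluconeogenesis, mitochondrial pyruvate use, lactate transport and regulators. Of 101 genes found, 98 were tested and 0 were called by edgeR, DESeq2 or limma-voom, while 9 had an unadjusted p under 0.05 in each tool (4 higher and 5 lower in edgeR). Over all tested genes, 3.34% were higher and 2.61% lower at that level in edgeR, and 5.95%, 5.58% and 6.03% passed it in either direction in edgeR, DESeq2 and limma-voom. The median log2 fold change was -0.03, with 40 above 0 and 58 below. Every mutant library was above every control for 4 of them and below for 6, against the 3.71% and 3.29% of all tested genes. By list, edgeR gave 3 of 17 entry genes lower at that level, 0 of 11 glycogen genes, 0 of 8 pentose phosphate genes, 1 of 16 gluconeogenesis partners (lower), 0 of 16 mitochondrial pyruvate genes, 1 of 8 lactate transport genes (higher) and 4 of 22 regulators (3 higher, 1 lower). DESeq2 and limma-voom also called none in any list.

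Among the smallest p-values over these lists were those of Slc2a2, Egln3, Txnip and Mlxip, none of which passed over all genes (edgeR's adjusted p 0.520 to 0.734). Slc2a2, the GLUT2 transporter through which proximal tubule cells release glucose, was at 196, 189 and 196 CPM in mutants 1 to 3 and at 215, 288, 253 and 241 CPM in control 1 to 4, a log2 fold change of -0.36 (SE 0.10). Every mutant library was below every control. Txnip, a glucose-induced brake on glucose uptake, had a log2 fold change of -0.38 (SE 0.13) and also did not overlap. Egln3, an oxygen-dependent hydroxylase of HIF proteins, was at 18.8, 21.2 and 16.1 CPM in the mutants against 14.6, 15.4, 12.9 and 12.8 CPM in the controls, a log2 fold change of 0.42 (SE 0.13) without overlap. Mlxip, a glucose-responsive transcription factor, had a log2 fold change of 0.25 (SE 0.09), also without overlap. Slc37a4, the transporter that hands glucose-6-phosphate to G6pc, was at 427 ± 32.6 CPM (SD, n = 3) and 421 ± 29.8 CPM (SD, n = 4), giving a log2 fold change of 0.02 (SE 0.09).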

How the data were processed

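Total RNA of whole mouse kidneys was sequenced as 150 bp pairs. The authors deposited whole-number read counts per gene, not normalized. FastQC, STAR, DESeq2 and the builds mm10 and GRCm38 are named in the submitters' processing notes without roles or versions; the sources used here do not give the counting program, its strand setting or the annotation. The 9 columns of per-sample values of the other deposited table show no genotype and were not used. A symbol was missing for 4690 of 28971 genes; symbols of the lists that the table names differently were matched by Ensembl identifier through GENCODE M21.

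With edgeR 4.0.16 in R 4.3.3, low genes were removed (filterByExpr, minimum count 10), and the rest were scaled by TMM and tested by edgeR's quasi-likelihood test without covariates, with Benjamini-Hochberg adjustment over all 15615 genes. A gene is called at an adjusted p under 0.05. DESeq2 (1.42.0, Wald test) and limma-voom (limma 3.58.1) were alternatives, as were other scalings and filters, a Xist covariate, each library left out, and, chosen after seeing the data, an adrenal covariate and a fit without the 2 libraries richest in adrenal transcripts. Permutation tests were exact over 35 splits, two-sided, on log2(CPM + 1) (smallest p 0.0286). DESeq2 gave no adjusted p for 310 genes.

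Positions and merged exon lengths are from GENCODE M21 (GRCm38); promoters from RefSeq (GRCm38.p6), which matched 35 of 35 genes. Pairs of libraries of a group were not repeats of one another (chi-square over degrees of freedom 11.8 to 41.0). Without molecular identifiers, counting error is a lower limit of the true error. Values per library are printed for called genes, the 4 glycolytic and 2 gluconeogenic genes with the smallest p among those not called, the most counted isoform of each step, and Pck1, Fbp1, G6pc, Hk1, Hk2, Pkm, Pfkfb3, Ldha and Ldhb. Of the other lists, the 5 genes with the smallest p and Slc37a4 are named, except 1 gene that is not reported here. The genes and lists were chosen with earlier results of these data known.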

Additional observations from a re-analysis of the deposited data

Results flagged for a closer look

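Pkm in control 3 was at 531 CPM, while the next control library was at 467 CPM. The gap was 0.832 of the range of the 4 control libraries, over Dixon's limit for 4 values. The check covered Hes1 and the 35 genes, 36 groups of 4 controls, and found this 1 value; chance alone gives about 1 in 20 groups. Groups of 3 libraries were not checked.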

How the results depend on the processing

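The log2 fold change of Hes1 kept its direction and its call in all 16 alternatives (-1.72 to -1.51). Hkdc1 stayed higher in all 16, but its call was lost in 2: 1.37 without Hes1 cKO 1 (range 1.37 to 1.67 over libraries left out) and 1.50 without the 2 adrenal-rich libraries. The number of glycolytic genes called was accordingly 0 to 1 over libraries left out and 0 without the 2 adrenal-rich libraries. The number of all genes called was 102 without a low-count filter, 130 by DESeq2, and 25 to 47 over libraries left out (27 without Hes1 cKO 1, 25 without Hes1 cKO 2), against 53; the fits without a library rest on fewer libraries, and the cause was not tested otherwise. The number of gluconeogenic genes called was 0 in all 16. The median of the glycolytic genes ranged from -0.06 to 0.0021 and that of the gluconeogenic genes from -0.05 to 0.04. Slc16a3, Pgam2, Aldoc, Fbp1, Pck1 and Hk1 kept their direction in all 16.

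Directions that turned belonged to uncalled genes. Without the 2 adrenal-rich libraries, log2 fold changes were 0.18 for Hk2, 0.037 for Gpi1, 0.15 for Pfkfb3, 0.075 for Tpi1, 0.067 for Gapdh, -0.079 for Eno3 and -0.026 for Pdk1. With total-count scaling they were 0.0057 for Pfkm and 0.0023 for Ldhb, with the Xist covariate 0.014 for Pfkm and -0.019 for Ldha, with the adrenal covariate 0.00012 for Pfkm and -0.0042 for Ldha, and with no filter -0.0020 for Ldha. Over libraries left out, the ranges that crossed 0 were -0.13 to 0.16 for Hk2, -0.042 to 0.051 for Pfkm, -0.16 to 0.041 for Pfkfb3, -0.0010 to 0.076 for Aldoa, -0.13 to 0.012 for Tpi1, -0.13 to 0.0092 for Gapdh, -0.065 to 0.0020 for Pgk1, -0.051 to 0.36 for Eno3, -0.021 to 0.095 for Pkm, -0.065 to 0.12 for Ldha, -0.043 to 0.030 for Ldhb, -0.12 to 0.011 for Slc2a1, -0.052 to 0.092 for Pdk1, -0.0037 to 0.13 for Pck2 and -0.38 to 0.030 for G6pc. The cause was not tested.

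No paired analysis was possible because the columns carry no replicate numbers that match the labels. The size of difference that 3 against 4 libraries can detect was not measured.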
